A study of Mus musculus with 4 samples.

Results

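Imprinted genes outside the Dlk1-Dio3 cluster were examined in Beta-TC-6 cells, a mouse pancreatic beta cell line, after depletion of NF45. The set holds 10 genes chosen by symbol: H19, Igf2, Cdkn1c, Peg3, Peg10, Mest, Plagl1, Grb10, Sgce and Ndn. A gene was taken from probe sets with exactly 1 gene symbol in the platform annotation, and the brightest such probe set stood for it. This gave 9 measured genes of the 22180 genes with a probe set of 1 symbol. The 1 probe set of H19 carries more than 1 symbol, so H19 has no value here.

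The study compared 2 groups of 2 samples, each on its own Affymetrix Mouse Gene 2.1 ST array. In the group siNTC, Beta-TC-6 cells received a negative control siRNA, and in siNF45 they received a mixture of RNAi duplexes against NF45, both by lipid transfection in DMEM with glucose and fetal bovine serum. Neither the time after transfection nor separate cultures for the 2 samples of a group are given in the labels. The p-values therefore reflect the spread among these arrays alone, and that spread may be purely technical. Beta-TC-6 is 1 established insulinoma-derived line, and all samples share it.

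Genomic imprinting marks a gene by the parent it came from, so that in most tissues 1 parental copy is transcribed and the other is silent. The marks are stretches of DNA methylation set in the germ line and kept through cell division by DNA methyltransferases and zinc finger repressors. Imprinted genes are known for control of growth, and in pancreatic islets for control of beta cell number. In the set, H19, Cdkn1c and Grb10 are known as expressed from the maternal copy, with Grb10 an exception in neurons, and Igf2, Peg3, Peg10, Mest, Plagl1, Sgce and Ndn from the paternal copy. The arrays measure total RNA of a gene and do not separate the parental copies.

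NF45 is encoded by Ilf2 and binds double-stranded RNA as part of a complex. The log2 readings of Ilf2 were 5.79 and 5.98 with the control siRNA against 3.67 and 3.77 with the NF45 duplexes, and it fell by 2.17 (SE 0.13, limma adjusted p = 0.020). That call was lost without any 1 array and with the replicate number as a block, where the limma adjusted p lay between 0.258 and 0.471. The difference in those fits was -2.26 to -2.07, with an unadjusted p of at most 0.00066. Of the 7 listed genes of the NF45 complex and its partners, 6 were measured and 5 tested, with 3 below 0, 2 above and Ilf2 the only call. After Ilf2 the smallest p were those of the RNA helicase Dhx9 (-0.49, SE 0.13, limma adjusted p = 0.157) and the RNA editing enzyme Adar (-0.37, SE 0.13, limma adjusted p = 0.245). Of 15 beta cell markers, 13 were measured and 12 lay above the signal filter, among them Ins2 at 7.60 to 7.97, Iapp at 10.09 to 10.17 and Pdx1 at 6.44 to 6.55 over the 4 arrays. None of the 12 passed, 6 lay below 0 and 6 above, and the smallest p were those of Pax6 (0.28), Isl1 (0.24) and Slc2a2 (-0.17). Of 18 measured markers of acinar, ductal, vascular, blood and stromal cells, 14 lay under the filter, and none of the 18 was at 0. Summed on the linear scale, the 18 came to 56.7 and 55.2 in siNTC and to 59.6 and 60.2 in siNF45. Of the 4 above the filter, the duct keratin Krt7 read 3.41 and 3.13 in siNTC and 3.91 and 3.96 in siNF45 (difference 0.67, SE 0.14, limma adjusted p = 0.132), and passed after centring (adjusted p = 0.043). The other 3 lay below 0, among them Vim at -0.28 and Col1a2 at -0.19. Dimmer probe sets of Vim and Col1a2 lay above 0, at 0.245 and 0.08. Somatostatin (Sst), the delta cell hormone, and glucagon (Gcg), the alpha cell hormone, were both well above the filter in both groups. Sst differed by -0.89 (SE 0.16, limma adjusted p = 0.103) and Gcg by -0.02. The pancreatic polypeptide gene Ppy read 2.18 and 2.54 in siNTC and 3.13 and 2.62 in siNF45 (difference 0.52, SE 0.22, limma adjusted p = 0.307), and Irx2, an alpha cell transcription factor, differed by -0.39 (SE 0.16, limma adjusted p = 0.289). The 6 measured markers of other islet cells summed to 815 and 647 in siNTC and to 505 and 470 in siNF45 on the linear scale. Sst, the brightest of the 6, read 9.19 and 8.83 in siNTC and 8.18 and 8.07 in siNF45, and weighs most in these sums. The part of these markers in the results was not tested. In bulk samples, fewer cells of a type and less RNA per cell cannot be told apart.

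The sequences below are those of the loci on which the values turn. Igf2 and Plagl1 were the genes of the set with an unadjusted p under 0.05 above the signal filter, and the microRNAs lie inside genes of the set. RefSeq on GRCm38.p6 places Mir483 inside Igf2, Mir335 inside Mest and Mir675 inside H19. Their mature forms share no seed. Capitals mark the seed, bases 2 to 8.
mmu-miR-483-5p: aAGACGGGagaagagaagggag
mmu-miR-483-3p: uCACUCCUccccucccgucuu
mmu-miR-335-5p: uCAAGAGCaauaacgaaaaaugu
mmu-miR-335-3p: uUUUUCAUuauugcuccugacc

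RefSeq promoter windows (250 bases before to 50 after a start) were found for 6 of the 10 genes, 12 windows in all, of which 4 belong to Igf2. The Igf2 probe set does not separate its start sites. Below are the Igf2 windows with the fewest and the most CG pairs and the single window of Plagl1, because CG is the site of the methylation that imprinting uses. Capitals mark every CG.
Igf2 window at chr7:142666767-142667066, minus strand, GRCm38.p6: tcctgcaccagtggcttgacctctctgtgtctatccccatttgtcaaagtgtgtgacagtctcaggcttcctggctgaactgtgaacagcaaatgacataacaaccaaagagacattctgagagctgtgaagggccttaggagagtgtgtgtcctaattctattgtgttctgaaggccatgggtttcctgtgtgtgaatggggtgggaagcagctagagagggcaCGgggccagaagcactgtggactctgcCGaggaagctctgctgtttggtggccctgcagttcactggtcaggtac
Igf2 window at chr7:142658755-142659054, minus strand, GRCm38.p6: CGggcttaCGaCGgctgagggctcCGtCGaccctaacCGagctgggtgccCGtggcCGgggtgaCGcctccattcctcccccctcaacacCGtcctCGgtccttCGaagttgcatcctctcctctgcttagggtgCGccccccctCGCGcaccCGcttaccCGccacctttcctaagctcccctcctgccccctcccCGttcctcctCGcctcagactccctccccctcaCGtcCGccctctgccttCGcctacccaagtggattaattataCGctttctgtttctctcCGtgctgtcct
Plagl1 window at chr10:13090582-13090881, plus strand, GRCm38.p6: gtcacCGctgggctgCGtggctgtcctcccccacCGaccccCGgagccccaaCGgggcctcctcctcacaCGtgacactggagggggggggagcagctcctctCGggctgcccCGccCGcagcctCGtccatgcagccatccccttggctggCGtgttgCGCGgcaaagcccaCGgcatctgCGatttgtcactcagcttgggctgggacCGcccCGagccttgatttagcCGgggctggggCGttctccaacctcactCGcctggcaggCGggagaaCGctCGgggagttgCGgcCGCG

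The 3 windows hold 2, 24 and 26 CG pairs, against a median of 7 over 32851 windows of the same length. Grb10 has 2 windows with 45 and 9 CG pairs, Peg3 has 13 and Ndn has 11. The motif TGCCGC, known as the binding site of the imprint-protecting zinc finger protein Zfp57 and overlapping a CG itself, was searched on both strands. It occurred in 5 of the 12 windows and in 11.6% of all windows. These 5 were 1 of Igf2, 1 of Plagl1, 1 of Grb10 and 2 of Mest that differ by a shift of a few bases. CCATNTT, the core of the YY1 site, occurred in 2 of the 12 and in 16.1% of all, and TATAAA in 0 of the 12 and in 13.6% of all. A match is a description of letters and not a bound site.

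None of the imprinted genes passed the test. A gene was tested when its mean over the 4 arrays reached 1.65, the median of all probe sets on the log2 scale, which 4 of the 9 measured genes did: Igf2, Plagl1, Peg3 and Ndn. In the limma fit over 11742 tested genes 0 of these 4 had an adjusted p under 0.05, where 0.0852% of all tested genes did. Igf2 and Plagl1 were lower with an unadjusted p below 0.05, as were 13.2% of all tested genes. The 2 of 4 is a description, since only bright genes were tested. The other 5, Cdkn1c, Grb10, Mest, Peg10 and Sgce, lay under the filter, between 1.24 and 1.80 on every array. For these the values and a fit without the filter are given, and no detection call was available.

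**Figure D1:**
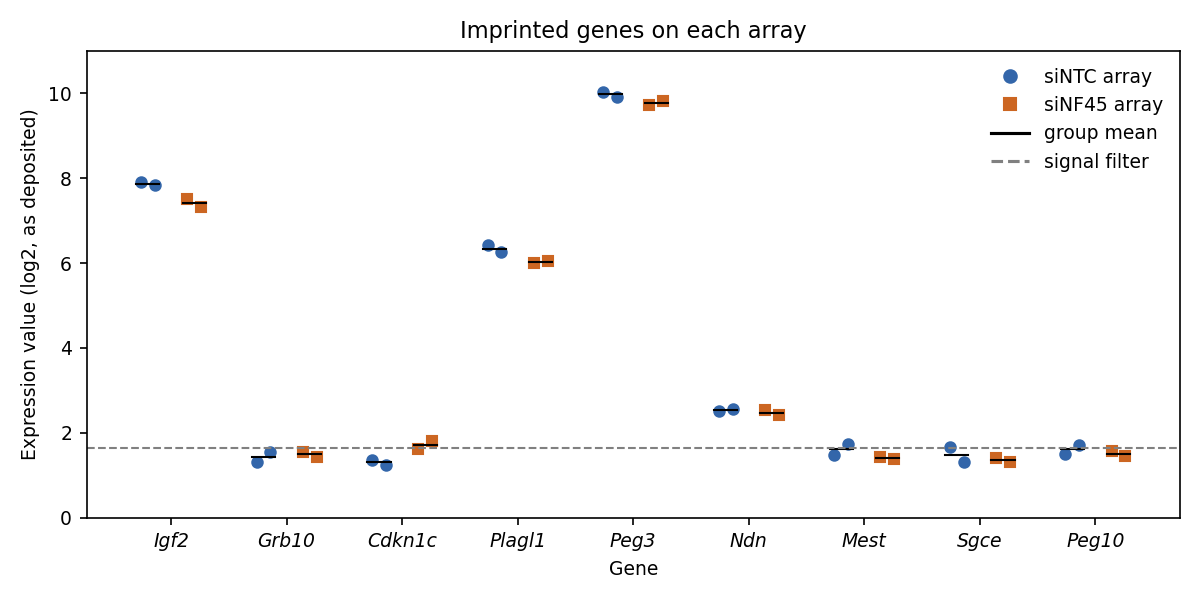
Expression value (log2, as deposited; vertical axis) of the 9 measured imprinted genes on each of the 2 siNTC arrays (circles) and 2 siNF45 arrays (squares), with group means as lines. The siNF45 points of Igf2, Plagl1, Peg3 and Mest lie below both siNTC points, those of Cdkn1c above, and 5 genes sit around or under the dashed filter line at 1.65.

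The growth signalling genes were a ligand above the filter and an adapter under it. Igf2, the insulin-like growth factor that drives fetal growth and acts on beta cells as an autocrine factor, read 7.91 and 7.83 in the 2 siNTC samples and 7.50 and 7.31 in the 2 siNF45 samples. Both siNF45 arrays were below both siNTC arrays. The mean went from 7.87 ± 0.06 to 7.41 ± 0.13 (SD, n = 2 each), a difference of -0.47 (SE 0.13, 95% interval -0.79 to -0.14) with a limma adjusted p of 0.180. On the linear scale this is 27.6% less signal. The difference was larger than the spread between replicates and did not pass the adjusted threshold. Its unadjusted p of 0.013 was 0.072 without siNTC replicate 1 and 0.062 without siNF45 replicate 2. Grb10, an adapter that binds the insulin and IGF receptors and dampens their signal, read 1.31 and 1.55 in siNTC and 1.56 and 1.44 in siNF45. The groups overlapped, and the difference of 0.07 turned to -0.05 without siNTC replicate 1.

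Cdkn1c, which encodes the cyclin-dependent kinase inhibitor p57 and restrains beta cell division, went the other way at low signal. It read 1.37 and 1.24 in siNTC and 1.61 and 1.80 in siNF45, so the groups did not overlap. The difference was 0.40 (SE 0.13, 95% interval 0.08 to 0.72), with an unadjusted p of 0.022 and an adjusted p of 0.309 in the limma fit without a filter. Its mean over the 4 arrays, 1.51, is under the filter, and the highest of its values is 1.80. Without siNTC replicate 1, siNTC replicate 2 or siNF45 replicate 2 the unadjusted p was 0.053, 0.112 and 0.101.

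The zinc finger regulators were both measured well above the filter. Plagl1, a transcription factor that regulates other imprinted genes and is linked to transient neonatal diabetes, read 6.43 and 6.25 in siNTC and 5.99 and 6.04 in siNF45. Both siNF45 arrays were again the lower ones. The difference was -0.33 (SE 0.13, 95% interval -0.64 to -0.01), with a limma unadjusted p of 0.046 and an adjusted p of 0.279. The unadjusted p stayed under 0.05 without siNTC replicate 2 (0.043) and was 0.0998 to 0.149 without any other array. It was 0.066 under quantile normalization, 0.066 with the replicate block and 0.213 after centring of the arrays. A dimmer probe set of Plagl1 read 1.40 and 1.79 against 1.67 and 1.30, with overlapping groups and a difference of -0.11. Peg3, a large zinc finger protein of the paternal genome, read 10.03 and 9.91 in siNTC and 9.73 and 9.81 in siNF45. The groups did not overlap, and the difference of -0.20 (SE 0.12, 95% interval -0.50 to 0.10) had a limma adjusted p of 0.459. Setting the tested genes of every array to a common median (centring) gave -0.20 for Plagl1 and -0.07 for Peg3.

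The remaining genes showed small differences. Ndn, which encodes necdin, a MAGE family protein that restrains cell growth, read 2.51 and 2.56 in siNTC and 2.53 and 2.42 in siNF45. Its difference of -0.06 (SE 0.12, 95% interval -0.36 to 0.24) was within the spread of the arrays. Mest, an enzyme-like protein of the alpha/beta hydrolase fold, read 1.48 and 1.75 against 1.44 and 1.39, a difference of -0.20 (SE 0.14) without overlap but at low signal. Peg10, a protein derived from a retrotransposon, differed by -0.10 (SE 0.13) and Sgce, the epsilon subunit of the sarcoglycan complex, by -0.12 (SE 0.15), both with overlapping groups. Peg10 and Sgce share a bidirectional promoter region, and their readings ran from 1.45 to 1.72 and from 1.32 to 1.66.

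Over the 9 measured genes the median difference was -0.12, beside -0.07 over the tested genes and -0.01 over all 22180 genes without the filter. In 4 of the 9 both siNF45 arrays were below both siNTC arrays, where 22.7% of all 22180 genes and 32.6% of the tested genes were. In 1 of the 9 both were above, where 19.2% of all 22180 genes and 15.2% of the tested genes were. By known parental expression, 7 of 7 paternally expressed genes lay below 0 and 2 of 2 maternally expressed genes lay above 0. Below 0 lay 50.8% of all 22180 genes and 61.8% of the tested genes. Every tested gene of the set is paternally expressed. Quantile normalization kept the division by parental copy, while Grb10, Peg10 and Sgce changed side in some fits without 1 array. After centring the arrays, which adds 0.13 to every difference, 4 of the 7 paternally expressed genes were below 0, and Peg10 (0.03), Sgce (0.01) and Ndn (0.07) were above. The median of the 9 was then 0.01, and that of the tested genes 0.07. Leaving out siNTC replicate 2 or siNF45 replicate 2 brought the median of the 9 as deposited to -0.065 and -0.07. With 5 of the 9 genes under the filter and no set test run, the division is a description of these arrays.

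**Figure D2:**
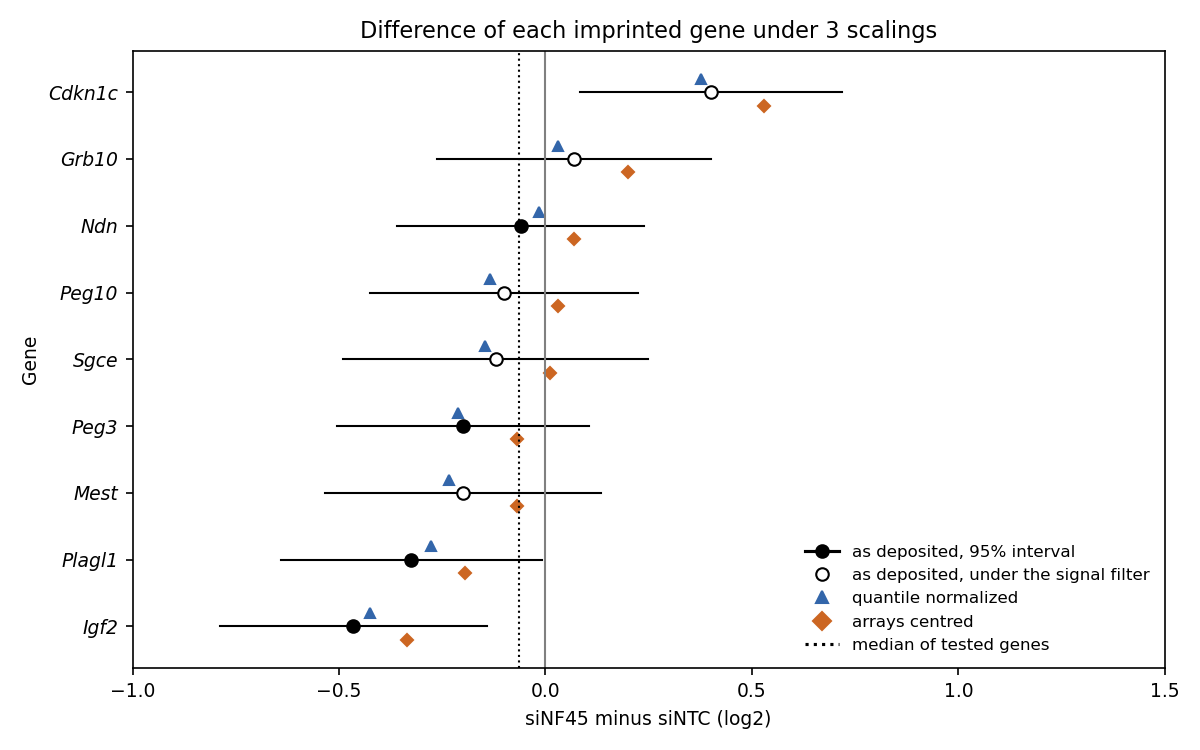
Difference siNF45 minus siNTC (log2; horizontal axis) of each imprinted gene as deposited with its 95% interval, after quantile normalization and after centring of the arrays; open circles are genes under the signal filter and the dotted line is the median of the tested genes, -0.07. Igf2 and Plagl1 lie to the left of 0 under all 3 scalings and Cdkn1c to the right, while Ndn, Peg10 and Sgce change side when the arrays are centred.

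Noncoding transcripts of the Igf2 locus were also lower in both siNF45 arrays. Igf2os, the antisense transcript of Igf2, read 4.20 and 3.72 in siNTC and 3.53 and 3.43 in siNF45, a difference of -0.48 (SE 0.19, limma adjusted p = 0.274). Mir483, whose hairpin lies inside Igf2 on the same strand and whose mature forms are printed above, read 3.21 and 3.90 against 3.15 and 2.50. Its replicates were 0.69 and 0.65 apart, and the difference of -0.73 (SE 0.30) had a limma adjusted p of 0.301. For both transcripts the groups did not overlap, and neither passed. Without 1 array the difference ran from -0.72 to -0.24 for Igf2os, the smallest without siNTC replicate 1, and from -1.08 to -0.39 for Mir483, the smallest without siNTC replicate 2. Mir483 was at -0.41 without siNF45 replicate 2. Whether each probe set reads its own transcript or that of Igf2 was not tested, and precursor and mature microRNA cannot be told apart. Mir335, inside Mest, lay under the filter and read 1.52 and 0.91 in siNTC against 1.88 and 1.65 in siNF45.

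The nearest tested genes around each locus, 2 on each side, showed no common direction. Genes without a tested value were passed over, so some neighbours lie far from the locus by gene order. Zim1 lies 1 gene from Peg3, while Sec61g lies 25 and Egfr 31 genes from Grb10. Mir483 and Igf2os, described above, are counted as neighbours of H19 and Igf2. Several others, such as Kcnq1ot1, Casd1 and Zim1, are themselves listed as imprinted, so the neighbours are not a set of genes without imprinting. There were 32 such neighbours, of which 17 lay below 0 and 15 above, where 61.8% of all tested genes lay below 0, and the median was -0.05. None passed the limma adjusted threshold. An unadjusted p below 0.05 was seen for 7 lower and 2 higher neighbours, beside 13.2% and 4.02% of all tested genes. Groups did not overlap for 13 lower and 7 higher neighbours, beside 32.6% and 15.2% of the tested genes.

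Around Sgce and Peg10 all 4 neighbours were lower on both siNF45 arrays, as were 32.6% of all tested genes. Casd1, a sialic acid O-acetyltransferase, read 5.47 and 5.44 in siNTC and 4.99 and 4.99 in siNF45 (difference -0.47, SE 0.12, limma adjusted p = 0.151). Ppp1r9a, a neuronal actin-binding protein, differed by -0.57 and the paraoxonase Pon3 by -0.83, at limma adjusted p of 0.134 and 0.147. The collagen gene Col1a2 differed by -0.19 at signal near the filter, with 1.79 and 1.75 in siNTC and 1.46 and 1.70 in siNF45. All 4 stayed below 0 after centring, while a dimmer probe set of Col1a2 differed by 0.08 as deposited. Asb4, an imprinted gene further along the same cluster, differed by 0.51 (SE 0.16, limma adjusted p = 0.212). Under the filter, Pon2 and Calcr of this cluster differed by 0.15 and 0.285 without overlap, and Tfpi2 by -0.19 with overlapping groups.

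At the Cdkn1c locus the neighbours diverged. Trpm5, a calcium-activated cation channel, read 2.88 and 2.69 in siNTC and 3.59 and 3.77 in siNF45, a difference of 0.90 (SE 0.14, limma adjusted p = 0.085) that passed after centring (adjusted p = 0.025). Kcnq1ot1, the paternally expressed noncoding RNA that silences this cluster including Cdkn1c, read 4.82 and 4.53 against 4.28 and 4.26. Its difference was -0.41 (SE 0.14, limma adjusted p = 0.245), while that of Cdkn1c was 0.40 at signal under the filter. Whether the 2 values are linked was not tested. Nap1l4 differed by 0.04 and Cars by 0.13. Around Mest, the noncoding RNA Lncpint differed by -0.85 (SE 0.17, limma adjusted p = 0.123) and Copg2, next to Mest, by -0.27. Around Peg3, Zim1 differed by 0.12 and Usp29 by 0.19, around Plagl1 Sf3b5 by -0.28 and Ltv1 by 0.23, and around Ndn Otud7a by -0.55 (SE 0.12, limma adjusted p = 0.136). For the neighbours named next, Ddc apart, the 95% interval of the difference includes 0. It also includes 0 for Nap1l4, Cars, Copg2, Zim1, Usp29, Sf3b5 and Ltv1. At the H19 and Igf2 locus Syt8 differed by 0.15 and Mrpl23 by 0.04, around Peg3 Zfp28 by -0.14 and Zfp954 by 0.19, and around Mest Tmem209 by 0.24 and Cep41 by 0.04. Around Plagl1, Stx11 differed by 0.15 and Phactr2 by -0.05, and around Ndn, Mir344-2 by -0.04, A330076H08Rik by 0.07 and Chrna7 by -0.19. Around Grb10, Fignl1 differed by 0.12, Sec61g by -0.28 and the growth factor receptor Egfr by -0.22. Ddc, the neighbour of Grb10 that makes dopamine and serotonin, differed by 0.36 (SE 0.13, 95% interval 0.03 to 0.69, limma adjusted p = 0.259).

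**Figure D3:**
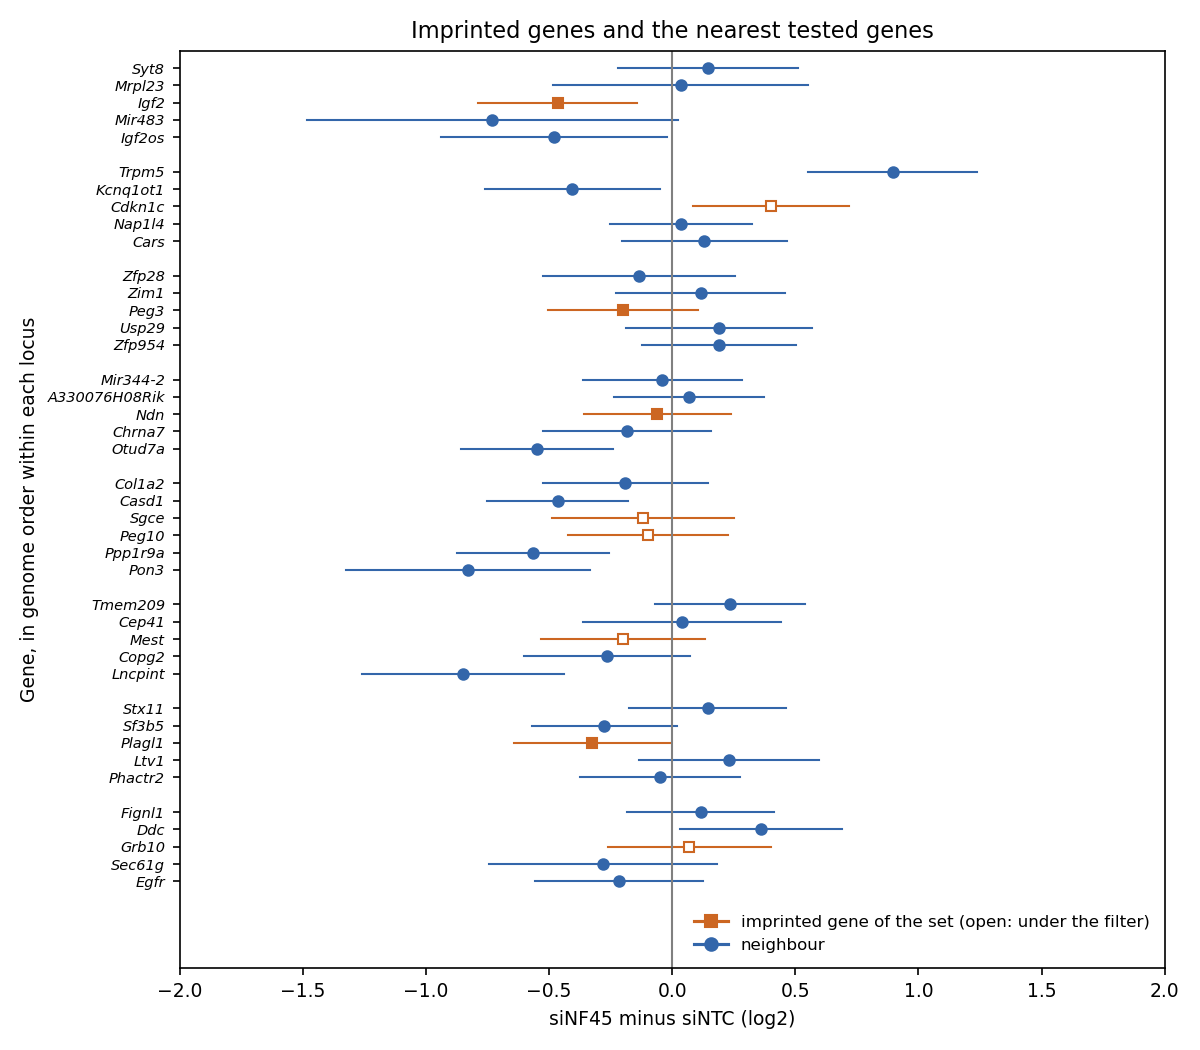
Difference siNF45 minus siNTC (log2; horizontal axis) with 95% interval for each measured imprinted gene (squares; open where under the signal filter) and its nearest tested neighbours (circles), listed in genome order within each of the loci. Neighbours lie on both sides of 0, with all 4 around Sgce and Peg10 below 0 and Trpm5 near Cdkn1c at 0.90.

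Imprinted genes beyond the set gave 49 measured names of 58, of which 32 lay above the filter. None passed, 17 lay below 0 and 15 above, and the median was -0.02, beside -0.07 over all tested genes. With an unadjusted p below 0.05, 6 of the 32 were lower and 4 higher, beside 13.2% and 4.02% of all tested genes. Several are neighbours described above. Nnat, or neuronatin, a paternally expressed protein of the endoplasmic reticulum that aids insulin processing in beta cells, had the smallest p of this list. It read 8.26 and 8.15 in siNTC and 8.89 and 8.96 in siNF45, a difference of 0.72 (SE 0.12) or 1.65-fold higher, with a limma adjusted p of 0.094. It passed after centring (adjusted p = 0.036) and with a trend in eBayes (0.013), and a second probe set of Nnat differed by 0.91. The 7 paternally expressed genes of the set lay below 0 on this scale, and Nnat lay above 0. Kcnq1ot1, also paternally expressed, lay below 0. Nnat and Kcnq1ot1 are examples only. The list as a whole was not sorted by parental copy, so the division seen in the set was not examined beyond it. Inpp5f, a phosphoinositide phosphatase, differed by -0.41 and the tetraspanin Cd81 by 0.37, both without overlap. Igf2r, the receptor that clears Igf2, read 6.16 and 6.07 against 6.19 and 6.01, a difference of -0.02 with overlapping groups. Gnas, the stimulatory G protein subunit that couples incretin receptors to cAMP, differed by -0.16.

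**Figure D4:**
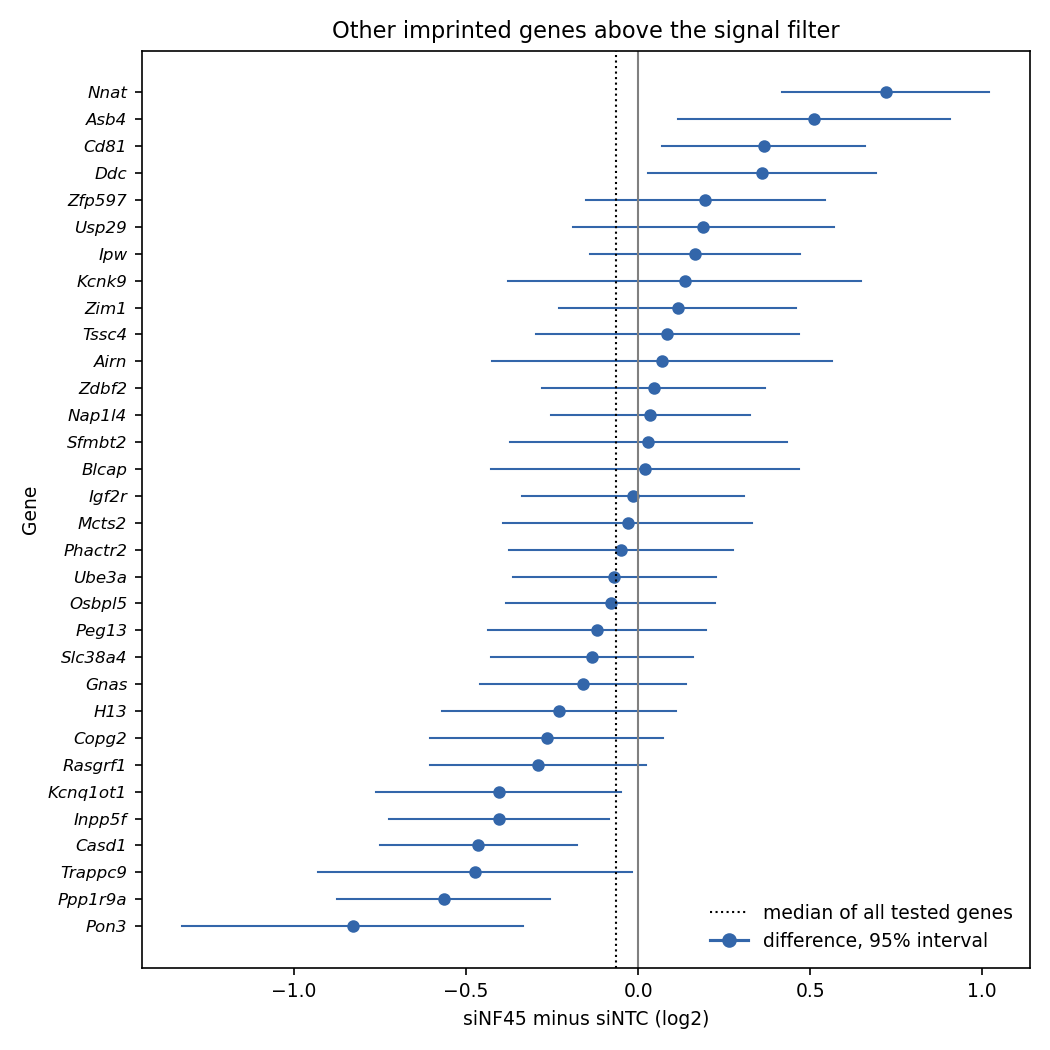
Difference siNF45 minus siNTC (log2; horizontal axis) with 95% interval for the 32 further imprinted genes above the signal filter, ordered by difference. The values run from -0.83 for Pon3 to 0.72 for Nnat, with 17 genes below 0 and 15 above; the dotted line is the median of all tested genes.

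In the Dlk1-Dio3 cluster, the other large imprinted domain, 5 of 7 genes were measured by the same rule and 2 lay above the filter. Dlk1, a transmembrane inhibitor of differentiation, read 3.66 and 3.92 in siNTC and 4.40 and 3.92 in siNF45 (difference 0.37, SE 0.20, limma adjusted p = 0.406). Rian, a long noncoding RNA, differed by 0.06 (SE 0.12). Under the filter, Begain differed by -0.44, Dio3 by -0.14 and Meg3 by -0.02. Whether the cluster differs from the imprinted genes elsewhere was not tested.

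Genes that keep imprints, listed together with the methylcytosine-oxidising Tet genes, were measured for 23 of 24 names, 20 above the filter. Their median was 0.01, with 10 below 0, 10 above 0 and none passing. Eed, a Polycomb subunit, differed by 0.39 (SE 0.12) and Uhrf1, which guides the maintenance methyltransferase to replicated DNA, by -0.54 (SE 0.17). Tet2, which oxidises methylcytosine, differed by 0.58 (SE 0.19). The limma adjusted p of these 3, the smallest of the list, were 0.206, 0.225 and 0.230. Trim28, the corepressor recruited by Zfp57, read 6.71 and 6.67 in siNTC and 6.36 and 6.37 in siNF45, a difference of -0.33 (SE 0.12, limma adjusted p = 0.245). Zfp57 itself lay under the filter, at 1.54 and 1.35 in siNTC and 1.37 and 1.40 in siNF45.

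The IGF axis around Igf2 and Grb10 had 17 of 19 genes measured and 9 above the filter. Of these 8 lay below 0 and 1 above, where 61.8% of all tested genes lay below 0, and the median of -0.34 was -0.21 after centring. None passed, and 4 had an unadjusted p below 0.05, all of them lower, as were 13.2% of all tested genes. The 8 measured genes under the filter are not in these counts and lay on both sides of 0. Among them Igfbp5 read 1.05 and 1.04 in siNTC and 1.41 and 1.55 in siNF45. Its difference was 0.435 (limma fit without the filter, unadjusted p = 0.010, adjusted p = 0.245). Irs2, the insulin receptor substrate on which beta cell growth depends, read 6.94 and 6.69 in siNTC and 5.85 and 5.85 in siNF45. Its difference of -0.97 (SE 0.14) is 1.95-fold lower, with a limma adjusted p of 0.079 that became 0.039 after centring, 0.014 with a trend in eBayes and 0.047 at the 70th percentile filter. Irs1 differed by -0.75 (SE 0.22) and the binding protein Igfbp7 by -0.48 (SE 0.15). A dimmer probe set of Irs1 read 1.07 and 1.05 in siNTC and 1.22 and 1.23 in siNF45, a difference of 0.165 in the other direction. Igf1r, the receptor that carries the Igf2 signal, was the tested gene above 0, at 0.35 (SE 0.15, limma adjusted p = 0.323).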

How the data were processed

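Total RNA of 4 samples was measured on 4 arrays. The deposited table holds log2 expression values for 41345 probe sets, made by the authors with Transcriptome Analysis Console, per the submitters' processing notes. Software version, summarisation and background step: not given in the sources used here. No source states the base of the logarithm either; base 2 was taken from the range of the values, and every fold rests on it. Array medians were 1.64 to 1.66 over all probe sets. Over the tested genes they were 3.82 and 3.76 in siNTC and 3.72 and 3.60 in siNF45.

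Of the probe sets, 23521 carried 1 gene symbol, 1814 several and 16010 were unnamed here. Probe sets with 1 symbol and a mean over 4 arrays of at least 1.65 (the 50th percentile) were kept, the brightest per gene, which gave 11742 genes. They were fitted by lmFit and eBayes of limma 3.58.1 under R 4.3.3 (group as the single term, 2 residual and 3.69 prior degrees of freedom) on the deposited values, with Benjamini-Hochberg adjustment and a threshold of 0.05. Genes under the filter were taken from the same fit without it. Differences are siNF45 minus siNTC. No set test was run. The number of arrays limits the precision.

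The members and lists were chosen with earlier results of these data known. The text names all members, Ilf2, the Dlk1-Dio3 genes, the 3 genes of each list with the smallest p and the nearest tested neighbours by RefSeq gene order. Igf2r, Gnas, Gcg, Trim28, Igf1r, Inpp5f, Cd81, Asb4, Iapp, Pdx1, Ins2, Cdkn1a, Cdkn1b and Mir335 were added after their values were seen. So were Igfbp5, Pon2, Calcr, Tfpi2 and Zfp57.

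Both groups carry replicate numbers 1 and 2, which were treated as names and not as pairs. Alternatives were other filters, quantile normalization, centred arrays, eBayes with trend or robust, the replicate block, probe sets averaged, and each array left out.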

Additional observations from a re-analysis of the deposited data

How the results depend on the processing

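No member was called under any alternative run. Their adjusted p ran from 0.060 for Igf2 with a trend in eBayes upward. In limma, an unadjusted p below 0.05 was seen for 2 of the 4 tested members as designed, for 3 with a trend (Peg3 added), for 1 under quantile normalization, centring, the replicate block or without siNF45 replicate 1, and for 0 without siNTC replicate 1 or siNF45 replicate 2. Without the filter Cdkn1c, higher, made 3 of 9. Igf2 stayed below 0 (-0.56 to -0.34), as did Plagl1 (-0.42 to -0.20), Peg3 and Mest, and Cdkn1c above 0 (0.31 to 0.53). The median over members, -0.12, became 0.01 after centring and ran from -0.16 to -0.065 without 1 array. Genes called numbered 10 as designed, 87 with the filter at the 70th percentile, 62 under quantile normalization, 172 after centring, 174 with a trend in eBayes, 190 at an adjusted p below 0.10, 0 with the replicate block (1909 at an unadjusted p below 0.05), and 0 without any 1 array (1236 to 1670). There the single array left in a group borrows the spread of the other group. Same-numbered arrays deviated together at a correlation of 0.0062 over genes, which does not settle pairing, and the block leaves fewer residual degrees of freedom.

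Of 974 values of 84 named genes under alternatives, 33 turned direction. Igfbp5, Pon2, Calcr, Tfpi2 and Zfp57 are not among the 84. After centring, which adds a constant, these were Meg3 0.12, Mir344-2 0.09, Ndn 0.07, Peg10 0.03, Phactr2 0.08, Sgce 0.01, Cdkn1b 0.045, Gcg 0.11, Iapp 0.08, Igf2r 0.115 and Pdx1 0.085. Under quantile normalization they were Gcg 0.0138 and Igf2r 0.0288. Without 1 array the range was -0.05 to 0.19 for Grb10, -0.21 to 0.01 for Peg10, -0.29 to 0.05 for Sgce, -0.16 to 0.13 for Meg3, -0.02 to 0.14 for Rian, -0.14 to 0.06 for Mir344-2, -0.19 to 0.26 for Mrpl23, -0.13 to 0.03 for Phactr2, -0.015 to 0.25 for Zim1, -0.15 to 0.23 for Cep41, -0.005 to 0.30 for Syt8, -0.31 to 0.035 for Zfp28, -0.205 to 0.035 for Cdkn1b, -0.18 to 0.14 for Gcg and -0.105 to 0.075 for Igf2r, and the cause was not tested. The median over members takes no filter, so it has no value under other filters.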

Other observations

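Relatives of the imprinted genes by sequence gave 20 measured names of 23, with 14 above the filter, a median of 0.01 and none passing. Maged1, a MAGE relative of necdin, read 7.74 and 7.65 in siNTC and 8.24 and 8.15 in siNF45, a difference of 0.50 (SE 0.12, limma adjusted p = 0.149) that passed with a trend in eBayes (adjusted p = 0.033). Plagl2, a relative of Plagl1, differed by -0.40 (SE 0.17, limma adjusted p = 0.305), and Sgcz, a relative of Sgce, by 0.34 (SE 0.15, limma adjusted p = 0.319).

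Around Cdkn1c, the list of cyclin-dependent kinases, their cyclins and inhibitors had 13 of 14 names measured and 11 above the filter. Of these 9 lay below 0 and 2 above, where 61.8% of all tested genes lay below 0. The median of -0.19 was -0.06 after centring, and none passed. Ccnd2, the D-type cyclin of growing beta cells, read 5.97 and 6.35 in siNTC and 5.60 and 5.55 in siNF45 (difference -0.59, SE 0.16, limma adjusted p = 0.178). Ccne1 differed by -0.55 and Ccnd3 by -0.42. The inhibitors closest to Cdkn1c had overlapping groups, with Cdkn1a at 0.16 and Cdkn1b at -0.09.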
